A study of Mus musculus with 10 samples.

Results

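Heat shock chaperones are described here as 10 genes picked by symbol, by a rule that uses no measured value though earlier results of these data were known: Hspa1a, Hspa1b, Hspa8, Hsph1, Dnajb1, Hsp90aa1, Hsp90ab1, Hspb1, Hspd1 and Hspe1. Each library's table holds 23282 entries, each of the 10 symbols was found, and all 10 were among the 11536 genes that passed the filter on low values (at least 5 in at least 5 libraries). The samples are whole skin of C57BL/6 mice aged 5 months, in 2 groups of 5 libraries: wild type (WT) and STAT3cKO, in which the transcription factor STAT3 was ablated in keratinocytes only. No other allele or agent is named for either group. The sources used here do not give the promoter that drives the ablation, the deleted exons, the sex of the mice or whether a library is 1 mouse or a pool. The p-values therefore measure the spread between libraries, which may be technical in part. Values are on the deposited log2 scale, read as log2 of scaled reads plus 1 at transcript 3′ ends, so that a difference of 1 is a doubling. Each change is STAT3cKO minus WT.

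Chaperones bind unfolded or partly folded proteins and help them fold, or keep them from clumping. HSP70 proteins work in cycles driven by ATP, with J proteins that hand over clients and HSP110 proteins that exchange the nucleotide, and HSP90 proteins take over many clients such as kinases and steroid receptors. Heat, oxidants and other stresses release heat shock factor 1, which binds repeated units of GAA and TTC before its target genes and raises the inducible members, while the constitutive members are abundant in unstressed cells, keratinocytes included.

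In 2 pairs the members share, or nearly share, the DNA before their starts, and those stretches are shown because the values of each pair are compared later. Hspa1a and Hspa1b are neighbouring genes for the inducible HSP70 on chromosome 17 (GRCm38: 34969190 to 34972156 and 34956436 to 34959238, both on the minus strand), and exons of the predicted gene Gm20481 overlap Hspa1a on the other strand. Hspd1 and Hspe1 lie head to head on chromosome 1 (55077835 to 55088243, minus strand, and 55088132 to 55091307, plus strand), and the annotated exons of the pair overlap on opposite strands. The 250 bases before the start of each Hspa1 copy are given from RefSeq (GRCm38.p6), with the capitals marking GAAGATTC, a match to the search pattern GAANNTTC.
Hspa1a, chr17:34972157-34972406, minus strand: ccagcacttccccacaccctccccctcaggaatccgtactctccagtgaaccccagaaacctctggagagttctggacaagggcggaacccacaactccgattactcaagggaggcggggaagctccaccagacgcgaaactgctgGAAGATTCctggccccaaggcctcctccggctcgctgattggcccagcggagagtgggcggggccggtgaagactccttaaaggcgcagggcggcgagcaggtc
Hspa1b, chr17:34959239-34959488, minus strand: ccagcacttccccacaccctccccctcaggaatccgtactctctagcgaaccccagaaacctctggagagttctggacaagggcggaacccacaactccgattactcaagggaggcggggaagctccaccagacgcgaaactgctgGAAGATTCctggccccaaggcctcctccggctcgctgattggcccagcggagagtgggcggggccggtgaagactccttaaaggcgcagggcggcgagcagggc
The 90 bases shown for Hspd1 and Hspe1, between RefSeq starts of Hspd1 (55087932, with another at 55088243) and Hspe1 (55088148), hold an unbroken run of alternating TTC and GAA units, marked by capitals.
Hspd1-Hspe1, chr1:55088023-55088112, plus strand: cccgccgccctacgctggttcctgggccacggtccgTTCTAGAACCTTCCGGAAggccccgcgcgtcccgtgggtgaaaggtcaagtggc

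The Hspa1 stretches were identical at 247 of 250 positions (98.8%), and GAAGATTC began at position -104 from the start in both. Whole transcripts of the 2 copies were 94.9% identical over the 2686 bases that aligned, with a longest shared run of 638 bases. Their last 300 bases, where a 3′ end library is read, were 72.9% identical over the aligned part, and the longest shared run there was 10 bases. How reads matching both copies were counted is not given in the sources used here, so the split between Hspa1a and Hspa1b is uncertain. For Hspd1 and Hspe1 strand matters in the same way, since the use of strand in counting is not stated in those sources.

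RefSeq windows from 250 bases before to 50 after a start were found for 7 members, and none was used for Hspa8, Hsp90aa1 and Hsp90ab1. The pattern of 3 units, GAANNTTCNNGAA on either strand, was in windows of 3 of these members, Hspd1, Hspe1 and Hsph1. Among all 32851 windows, 198 held it (0.603%), and Hspd1 and Hspe1 hold it in the same DNA. The pattern of 2 units (GAANNTTC or TTCNNGAA, which lies within the longer one) was in windows of 6 of the 7, all but Dnajb1, and in 15.1% of all windows. A match is a description of the letters only. The other members lie on chromosome 9 (Hspa8, 40800984 to 40810087), chromosome 5 (Hsph1, 149614287 to 149636376, and Hspb1, 135887919 to 135889563), chromosome 8 (Dnajb1, 83608193 to 83612653), chromosome 12 (Hsp90aa1, 110690605 to 110702728) and chromosome 17 (Hsp90ab1, 45567775 to 45573271).

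Estimated depth was 7200000 to 18500000 reads, with 7200000 to 16700000 in WT and 7530000 to 18500000 in STAT3cKO. The library with the most tested genes at no read was STAT3cKO 2 (2617 genes). WT 3 (1273), STAT3cKO 3 (1097) and WT 5 (983) came next, and WT 4 had the fewest (83). STAT3cKO 2 also differed from the other 9 libraries in genes of the sex chromosomes, with Xist at 0.06 against 8.65 to 11.01 and Ddx3y at 10.62 against 0.00 to 1.26. It may thus differ from the other 9 in sex, and the part of sex in the chaperone values was not tested. Stat3 itself did not pass the test in whole skin: it was at 9.70, 9.08, 10.27, 9.27 and 10.29 in WT 1 to 5, against 10.25, 9.98, 10.81, 9.49 and 10.13 in STAT3cKO 1 to 5 (change 0.41, SE 0.36, limma adjusted p = 0.700). Reads at the 3′ end check the deletion only where the deleted exons include it, and other cell types of skin keep the gene. Summed keratinocyte markers were at 15.39 to 16.91 in WT and 16.87 to 17.94 in STAT3cKO, adipocyte markers at 16.80 to 19.29 and 15.35 to 17.89, and skeletal muscle markers at 14.64 to 18.58 and 13.03 to 17.94. The change was above 0 for 10 of 10 keratinocyte markers (median 1.16) and 0 of 10 adipocyte markers (median -2.40), with 7 and 9 of 10 at an unadjusted p under 0.05, against 10.9% of all genes tested. After adjustment limma called 0 keratinocyte, 1 adipocyte (lower) and 0 muscle genes of 10 each, against 0.988% of all genes, and no marker was at 0 in every library. In whole skin fewer cells of a type and less RNA per cell cannot be told apart, and the part of tissue makeup in the chaperone values was not tested.

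None of the 10 chaperones passed the test between genotypes (limma with Benjamini-Hochberg adjustment over all genes tested), against 0.988% of all genes tested (0.529% higher and 0.459% lower). At an unadjusted p under 0.05 there was 1 of 10, Hspa1b, against 10.9% of all genes. In 0 of 10 did the libraries of the 2 genotypes lie apart without overlap, against 3.42% of all genes (1.71% higher and 1.72% lower). Of the 10 changes 5 were above 0, as were 43.8% of all, and the median change was 0.02 against -0.16 over all genes tested. Apart from Hspa1b, no change was larger than 0.59 in size and no adjusted p was under 0.734.

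**Figure D1:**
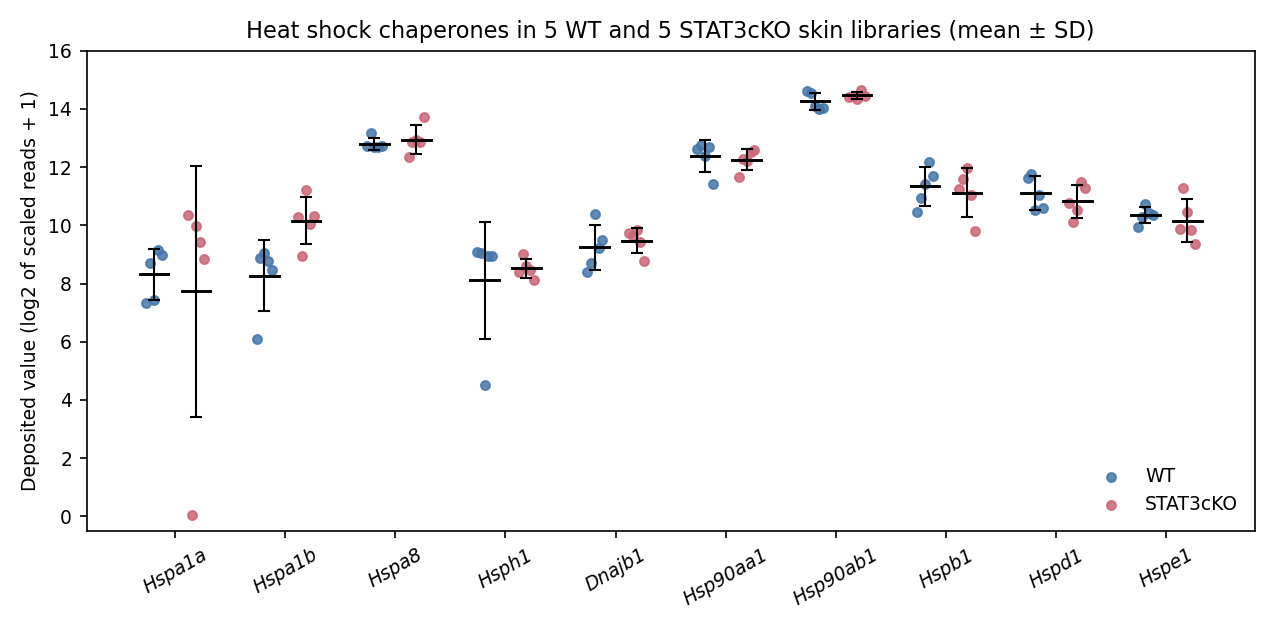
Deposited value (log2 of scaled reads plus 1) of the 10 chaperone genes, with 1 point per library, WT in blue and STAT3cKO in red, and bars for the mean and SD (n = 5 per group). The groups overlap for each gene, and the single low points are Hspa1a in STAT3cKO 2 (0.06), Hsph1 in WT 3 (4.51) and Hspa1b in WT 1 (6.11).

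Hspa1b had the largest difference. It stood at 6.11, 8.87, 9.05, 8.79 and 8.48 in WT 1 to 5 and at 10.28, 8.95, 11.22, 10.05 and 10.31 in STAT3cKO 1 to 5. Except for STAT3cKO 2, which lay just under WT 3, each STAT3cKO library was above each WT library. In reads, WT libraries held an estimated 102 to 592 and STAT3cKO libraries 353 to 2246. Means were 8.26 ± 1.22 (SD, n = 5) in WT and 10.16 ± 0.81 (SD, n = 5) in STAT3cKO. The change of 1.90 (SE 0.56, 95% interval 0.73 to 3.07) is 3.74-fold, with an interval from 1.66-fold to 8.4-fold. It missed the threshold after adjustment over all genes (unadjusted p = 0.00308, limma adjusted p = 0.122). An exact 2-sided permutation test of this gene alone gave p = 0.0159, not adjusted although Hspa1b was singled out as the largest of 10 changes, where 0.00794 is the smallest p that 5 against 5 libraries can give. Without WT 1, whose value was the lowest, the WT mean was 8.80 and the change 1.36 (limma adjusted p = 0.254).

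Hspa1a, the other copy, read 7.32, 8.70, 7.45, 9.14 and 8.97 in WT 1 to 5, against 10.36, 0.06, 9.96, 9.41 and 8.85 in STAT3cKO 1 to 5. In STAT3cKO 2 no read was counted, while the other 4 STAT3cKO libraries had 816 to 1076 estimated reads and the WT libraries 129 to 525. Of those 4, 3 lay above every WT library and STAT3cKO 5 lay within the WT range. The change with all libraries was -0.59 (SE 1.77; limma adjusted p = 0.927, 95% interval from -4.51 to 3.34), and its interval is too wide to show any direction. With STAT3cKO 2 set to the worth of 3 reads (2.37), the limit that a count of 0 allows, the change was -0.12. Without STAT3cKO 2 it was 1.33 (limma adjusted p = 0.267).

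A sum of both copies does not depend on how reads were split between them, and was added after the data were seen. It was 7.83, 9.78, 9.46, 9.97 and 9.74 in WT 1 to 5, against 11.32, 8.95, 11.72, 10.76 and 10.76 in STAT3cKO 1 to 5. STAT3cKO 2 was lower than 4 of the 5 WT libraries, and the other 4 STAT3cKO libraries were above all of WT. The change was 1.34 (SE 0.51, 95% interval 0.27 to 2.42), or 2.54-fold, and missed the threshold (limma adjusted p = 0.311, exact permutation p = 0.0714). With 1 library left out it ran from 0.96 without WT 1 (limma adjusted p = 0.575), the lowest WT library, to 1.78 without STAT3cKO 2 (limma adjusted p = 0.0569). It passed only with sample weights, at 1.61 (limma adjusted p = 0.0352), among the alternatives run for the sum. Hspa1a gave 24.8 to 70% of the sum in WT, and 26.7 to 51.3% in STAT3cKO apart from STAT3cKO 2, where its share was 0.00921%, the offset of a gene without a read.

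**Figure D2:**
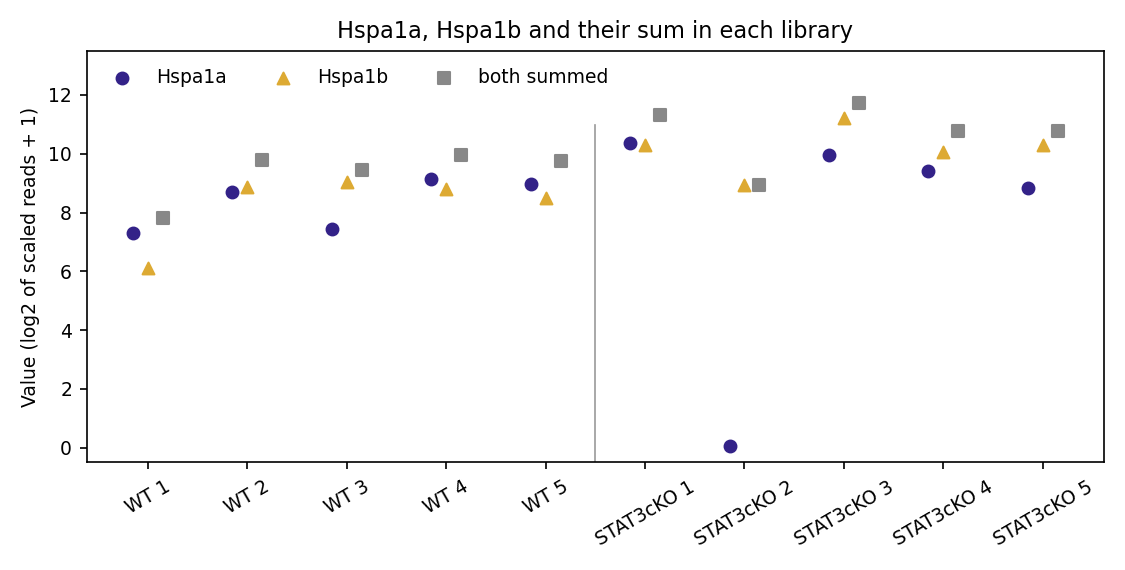
Hspa1a (circles), Hspa1b (triangles) and the sum of both (squares), as log2 of scaled reads plus 1, in each of the 5 WT and 5 STAT3cKO libraries. Hspa1a in STAT3cKO 2 lies at 0.06 while Hspa1b in that library is at 8.95, so there the sum equals Hspa1b.

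Hspa8, the constitutive cytosolic HSP70, was at 12.71, 13.17, 12.68, 12.70 and 12.74 in WT 1 to 5 and at 12.34, 12.85, 12.93, 12.88 and 13.74 in STAT3cKO 1 to 5. STAT3cKO libraries held both the lowest and the highest value. The change was 0.15 (SE 0.26; limma adjusted p = 0.854, 95% interval from -0.41 to 0.70). Small nucleolar RNA genes lie inside Hspa8 on the same strand. Within a library, Hspa1a minus Hspa8 was -4.48 ± 0.83 (SD, n = 5) in WT and -5.22 ± 4.36 in STAT3cKO, and this ratio did not pass between genotypes (exact permutation p = 0.944, adjusted p = 0.944 over 3 such ratios). STAT3cKO 2, which had no read of Hspa1a, was at -12.79, against -4.89 to -1.98 in the other STAT3cKO libraries. The difference between genotypes was -0.73 with all libraries and 1.16 without STAT3cKO 2 (exact permutation test, adjusted p = 0.405 over 3 ratios).

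Hsph1, the cytosolic HSP110 that exchanges nucleotide on HSP70, stood at 9.09, 9.06, 4.51, 8.96 and 8.95 in WT 1 to 5. In STAT3cKO 1 to 5 it was at 8.41, 9.02, 8.60, 8.46 and 8.13. WT 3 had 16 estimated reads, against 330 to 814 in the other WT libraries. The change was 0.41 (SE 0.77; limma adjusted p = 0.865, 95% interval from -1.22 to 2.04), and without WT 3 it turned to -0.49 (limma adjusted p = 0.715). Dnajb1, an inducible J protein that supplies clients to HSP70, ran from 8.41 to 10.38 in WT and from 8.76 to 9.84 in STAT3cKO. Its change was 0.23 (SE 0.42; limma adjusted p = 0.854, 95% interval from -0.65 to 1.11). Dnajb1 thus stayed within the WT range in each STAT3cKO library.

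The HSP90 genes were among the steadiest members. Hsp90ab1, the constitutive form, was at 14.62, 14.54, 14.09, 14.00 and 14.03 in WT 1 to 5 and at 14.42, 14.46, 14.34, 14.66 and 14.44 in STAT3cKO 1 to 5. Its change was 0.21 (SE 0.21; limma adjusted p = 0.734, 95% interval from -0.23 to 0.64, exact permutation p = 0.175). Its SD within groups was 0.22, lower than in all but 0.468% of the genes tested, and 99.7% of genes had a lower mean. Hsp90aa1, the more inducible form, ran from 11.43 to 12.75 in WT and from 11.67 to 12.58 in STAT3cKO, and differed by -0.11 (SE 0.29; limma adjusted p = 0.908, 95% interval from -0.73 to 0.50). Within a library Hsp90aa1 minus Hsp90ab1 was -1.88 ± 0.47 (SD, n = 5) in WT and -2.21 ± 0.33 in STAT3cKO. That difference of -0.32 between genotypes did not pass (exact permutation p = 0.246, adjusted p = 0.738 over 3 ratios).

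Hspb1, a small heat shock protein that holds unfolded proteins without ATP and is made by differentiating keratinocytes, was at 10.45, 10.93, 11.42, 12.18 and 11.70 in WT 1 to 5. In STAT3cKO 1 to 5 it was at 11.25, 11.60, 11.96, 11.04 and 9.79. The change was -0.21 (SE 0.40; limma adjusted p = 0.869, 95% interval from -1.05 to 0.63). The groups overlapped over most of their range, with STAT3cKO 5 lowest and WT 4 highest.

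Hspd1 and Hspe1 encode the chaperonin barrel and its lid, which together fold proteins in the mitochondrial matrix. Hspd1 was at 11.64, 11.75, 10.51, 11.05 and 10.59 in WT 1 to 5 and at 10.76, 10.10, 10.52, 11.48 and 11.29 in STAT3cKO 1 to 5 (change -0.28, SE 0.35; limma adjusted p = 0.789, 95% interval from -1.0 to 0.45). Hspe1 was at 9.94, 10.29, 10.73, 10.42 and 10.37 in WT 1 to 5 and at 9.87, 11.28, 10.47, 9.84 and 9.35 in STAT3cKO 1 to 5 (change -0.19, SE 0.36; limma adjusted p = 0.869, 95% interval from -0.94 to 0.57). Hspe1 minus Hspd1 differed by 0.09 between genotypes (exact permutation p = 0.913, adjusted p = 0.944 over 3 ratios). Neither gene, nor their ratio, separated the genotypes.

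**Figure D3:**
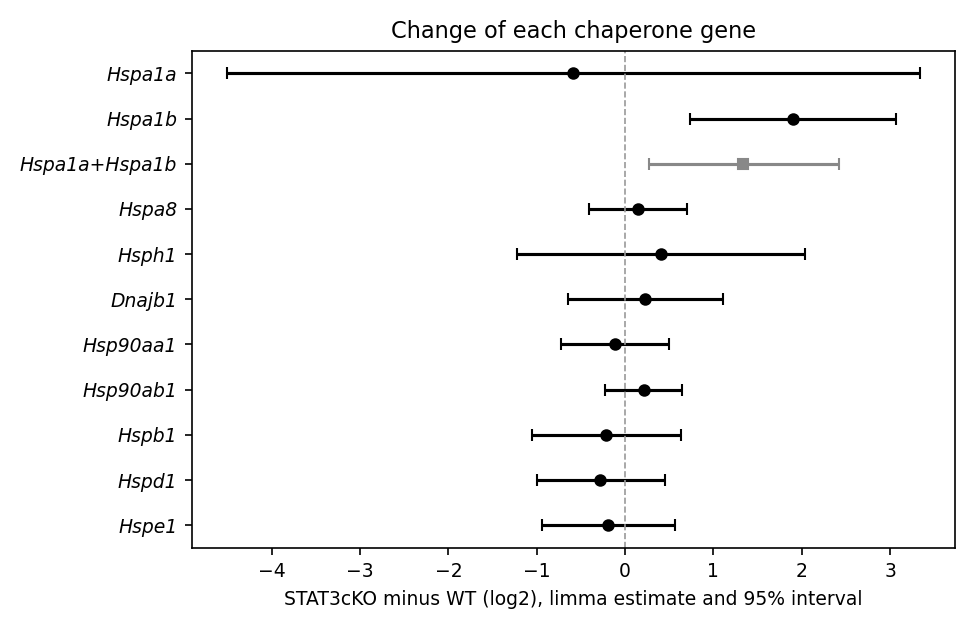
STAT3cKO minus WT on the log2 scale for each chaperone gene and for the sum of Hspa1a and Hspa1b (grey square), with limma's 95% intervals from 5 libraries per group. The interval of Hspa1a is the widest (-4.51 to 3.34), and among the 10 genes only that of Hspa1b (0.73 to 3.07) lies wholly above 0.

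The intervals set what these libraries can show. For 4 members (Hspa8, Hsp90aa1, Hsp90ab1 and Hspe1) the whole 95% interval lay within a doubling or a halving, and for 7 within 1.2 on the log2 scale, while the median width of the interval over all genes tested was 4.41. In the order of level over the 10 libraries, Hsp90ab1 (mean 14.36) was above Hspa8 (12.87) in 10 of 10 libraries, by 1.49 ± 0.38 (SD), and Hspa8 was above Hsp90aa1 (12.31) in 10 of 10, by 0.56 ± 0.42. Hspb1 (11.23), Hspd1 (10.97), Hspe1 (10.26), Dnajb1 (9.36), Hspa1b (9.21), Hsph1 (8.32) and Hspa1a (8.02) followed. Libraries of this kind count transcript ends, so levels do not scale with transcript length. In that lower part some neighbours had a mean difference smaller than its SD over the libraries, which is no test of a difference. They were Hspb1 and Hspd1 (0.26 ± 1.14), Hspd1 and Hspe1 (0.71 ± 1.0) and Dnajb1 and Hspa1b (0.15 ± 1.23). Hspa1b and Hsph1 (0.89 ± 2.09) and Hsph1 and Hspa1a (0.30 ± 3.31) were the others. Of these pairs, Hspd1 was above Hspe1 in 8 of 10 libraries. Hsp90ab1 and Hspa8, the constitutive forms, thus headed the list in each library, and Hsp90aa1 was above Hspb1 in 9 of 10.

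For Hspd1 and Hspb1 the libraries lay apart by depth and not by genotype. The 4 deeper libraries are WT 1, WT 2, STAT3cKO 4 and STAT3cKO 5 (14200000 to 18500000 reads, against 7200000 to 10000000 in the other 6), so that each set holds both genotypes, and this split was noticed after the data were seen. Hspd1 was at 11.29 to 11.75 in the deeper and 10.10 to 11.05 in the 6 shallower libraries, and Hspb1 at 9.79 to 11.04 and 11.25 to 12.18. Neither pair of ranges overlapped, as in 2.5% of all genes tested. At equal genotype, deeper minus shallower was 0.95 for Hspd1 (SE 0.26, unadjusted p = 0.00191, limma adjusted p = 0.206) and -1.13 for Hspb1 (SE 0.30, unadjusted p = 0.00155, limma adjusted p = 0.194). Limma called 0 of 10 members between the sets, against 0.078% of all genes. At an unadjusted p under 0.05 there were 3 (Hspb1, Hspd1 and Dnajb1), against 7.89% of all genes.

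Hspe1 minus Hspd1 showed the same split. It lay between -1.94 and -1.47 in the deeper libraries (mean -1.68 ± 0.20, n = 4) and between -0.88 and 1.18 in the shallower ones (mean -0.06 ± 0.73, n = 6). An exact 2-sided permutation test gave p = 0.00952 (adjusted p = 0.0286 over 3 ratios). Neither value covers the choice of the split, which was noticed after the data were seen. Hspd1, 1 term of the ratio, already lay apart by that split, so the test is a description and not separate support. Scaling between libraries drops out of this ratio. Over the 10 libraries Hspd1 and Hspe1 ran against each other (Pearson r = -0.68, permutation p = 0.027, adjusted p = 0.0809 over 3 pairs; Spearman rho = -0.73, permutation p = 0.02, adjusted p = 0.0599). Within the 6 shallower libraries r was -0.75 and rho -0.83 (exact permutation p = 0.0819 and 0.0583), and without the 2 libraries farthest from the median of Hspd1 r was -0.69. The relation kept its sign among the shallower libraries but did not pass after adjustment. In the 4 deeper libraries Hspe1 rose with Hspd1 instead. There Hspd1 was at 11.29, 11.48, 11.64 and 11.75 in STAT3cKO 5, STAT3cKO 4, WT 1 and WT 2. Hspe1 was at 9.35, 9.84, 9.94 and 10.29 in those libraries. The sign over the 10 libraries therefore did not hold within both sets. A link of these patterns to the overlap of the pair on opposite strands was not tested.

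**Figure D4:**
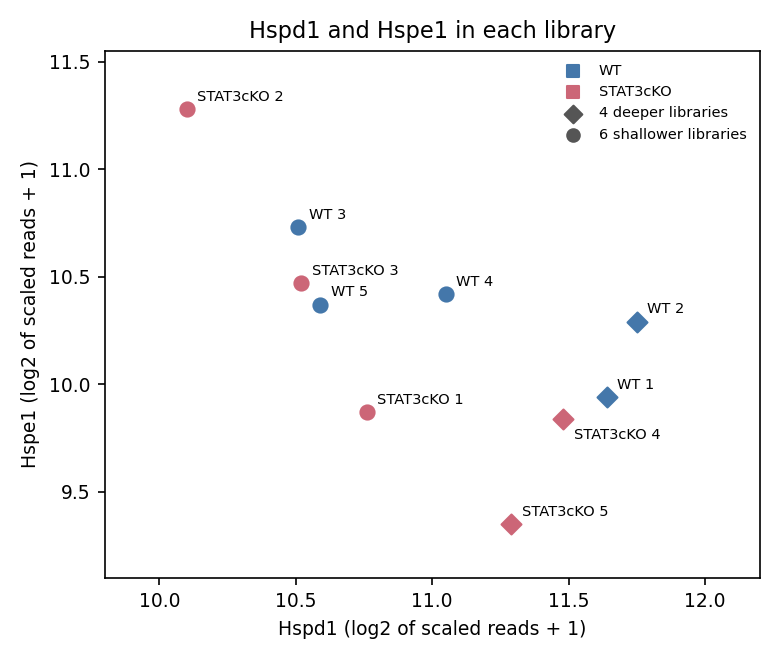
Hspd1 against Hspe1 (both log2 of scaled reads plus 1) in each library, WT in blue and STAT3cKO in red, with diamonds for the 4 deeper and circles for the 6 shallower libraries. The deeper libraries all lie at Hspd1 values of 11.29 or more, and the shallower ones at 11.05 or less.

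Within each set of libraries Hspa1b was higher in STAT3cKO, by 2.69 in the deeper (limma adjusted p = 0.231) and 1.38 in the shallower set (limma adjusted p = 0.797). The change of Hspa1a was 1.12 in the deeper set and -1.73 in the shallower set, which holds STAT3cKO 2. The sum of both copies was higher by 1.95 and 0.94 (limma adjusted p = 0.202 and 0.815). Each set holds 2 or 3 libraries per genotype, and the difference between the sets was not tested.

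Other genes of the chaperone network were counted in 8 lists, of which 84 of 92 genes were tested. Limma called 1 higher and 1 lower, both in the endoplasmic reticulum, against 0.529% and 0.459% of all genes, and their median change was -0.18 against -0.16 over all genes tested. Of the heat shock factors and regulators 0 of 3 tested passed, with a median of -0.40. Among them, by the rule of lowest p, Hsbp1, a small protein that binds heat shock factor 1, changed by -0.40 (SE 0.27, limma adjusted p = 0.601). Hsf1 itself, named after its value was seen, changed by -0.95 (SE 1.50, limma adjusted p = 0.836) and had no read in STAT3cKO 2. Hsf2, named in the same way, went up by 0.90 (SE 1.83, limma adjusted p = 0.876) and also had no read in STAT3cKO 2. In WT 3 it was at 1.26, near the value of 1 read, against 6.20 to 8.44 in the other WT libraries. The levels of Hsf1 and Hsf2 therefore could not be compared well between genotypes.

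The other HSP70 and HSP110 genes had 0 of 7 called (median -0.38), other J proteins 0 of 13 (median -0.24), HSP70 and HSP90 partners 0 of 18 (median 0.09), other small heat shock proteins 0 of 7 (median -0.89) and subunits of the cytosolic chaperonin TRiC 0 of 8 (median -0.15). The gene with the lowest p in each was, in that order, Hspa12a at -2.54 (no read in STAT3cKO 3), Dnaja1 at -0.35, Fkbp5 at 4.98, Hspb6 at -1.41 and Cct7 at -0.44. Fkbp5, an HSP90 partner of steroid receptors and a known glucocorticoid target, was at 9.16, 8.86, 0.06, 7.30 and 2.03 in WT 1 to 5 and at 9.14, 11.76, 9.98, 11.10 and 10.34 in STAT3cKO 1 to 5. WT 3 had no read of it and WT 5 was low, and the change did not pass (SE 1.69, limma adjusted p = 0.271). Its STAT3cKO values overlapped those of WT only through STAT3cKO 1.

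Of 19 endoplasmic reticulum chaperones and stress genes all were tested, 1 rose, 1 fell and 17 did not pass, with a median of 0.00. Canx, the membrane-bound lectin chaperone calnexin, rose: it was at 11.54, 11.53, 10.92, 11.08 and 10.58 in WT 1 to 5 and at 12.03, 13.02, 12.39, 12.68 and 12.55 in STAT3cKO 1 to 5. All STAT3cKO libraries were above all WT libraries (change 1.41, SE 0.28, limma adjusted p = 0.0196), although the call was lost without WT 3 (limma adjusted p = 0.0592). Serpinh1, the collagen chaperone HSP47, fell: 11.25, 12.76, 10.95, 10.92 and 11.02 in WT 1 to 5 against 10.10, 9.70, 9.22, 9.69 and 10.29 in STAT3cKO 1 to 5. These groups did not overlap either, but the call lay at the threshold (change -1.58, SE 0.37, limma adjusted p = 0.0499) and held in 1 of the 10 fits that left out 1 library, with an adjusted p of up to 0.139 without WT 2. Fibroblast markers, from cells that make collagen, had 1 of 10 genes called (lower), against 0.459% of all genes. Their median change was -0.45, against -0.16 over all genes tested, and 4 of 10 changes were above 0. At a limma unadjusted p under 0.05 there were 2 of 10, against 10.9% of all genes. The markers' summed level spanned 16.09 to 16.77 across WT libraries and 14.85 to 17.24 across STAT3cKO libraries. The part of fibroblasts in the Serpinh1 value was not tested. Oxidative and proteotoxic stress genes had 0 of 9 called (median 0.39), and the lowest p among them was that of Mt1, a metal-binding metallothionein (0.83, SE 0.33, limma adjusted p = 0.341).

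Immediate early genes, which are transcribed within minutes of many stimuli, are given as another index of stress. Of 18 tested 5 rose (against 0.529% of all genes) and 0 fell, 18 of 18 changes were above 0, and the median was 1.95. Fos, a subunit of the AP-1 transcription factor, was at 5.38, 3.58, 1.26, 5.38 and 4.89 in WT 1 to 5 and at 11.60, 12.21, 10.42, 10.54 and 9.87 in STAT3cKO 1 to 5. The groups lay far apart, but WT values were low, near that of 1 read in WT 3, so the size of the change is uncertain. It was 6.83 (SE 0.96, limma adjusted p = 0.000762), 6.12 without WT 3 and 4.79 at a pseudocount of 50, and Fos was called in each of the 10 fits that left out 1 library. Jun, its partner (2.16, SE 0.47, limma adjusted p = 0.0293), and Dusp1, a phosphatase of MAP kinases (1.98, SE 0.44, limma adjusted p = 0.0339), held in 4 and 3 of those fits, with an adjusted p of up to 0.0906 without WT 1 and 0.0924 without STAT3cKO 1. Genes on the other strand overlap both of them. Of the 10 chaperones 0 passed, and the difference between the 2 lists was not tested.

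**Figure D5:**
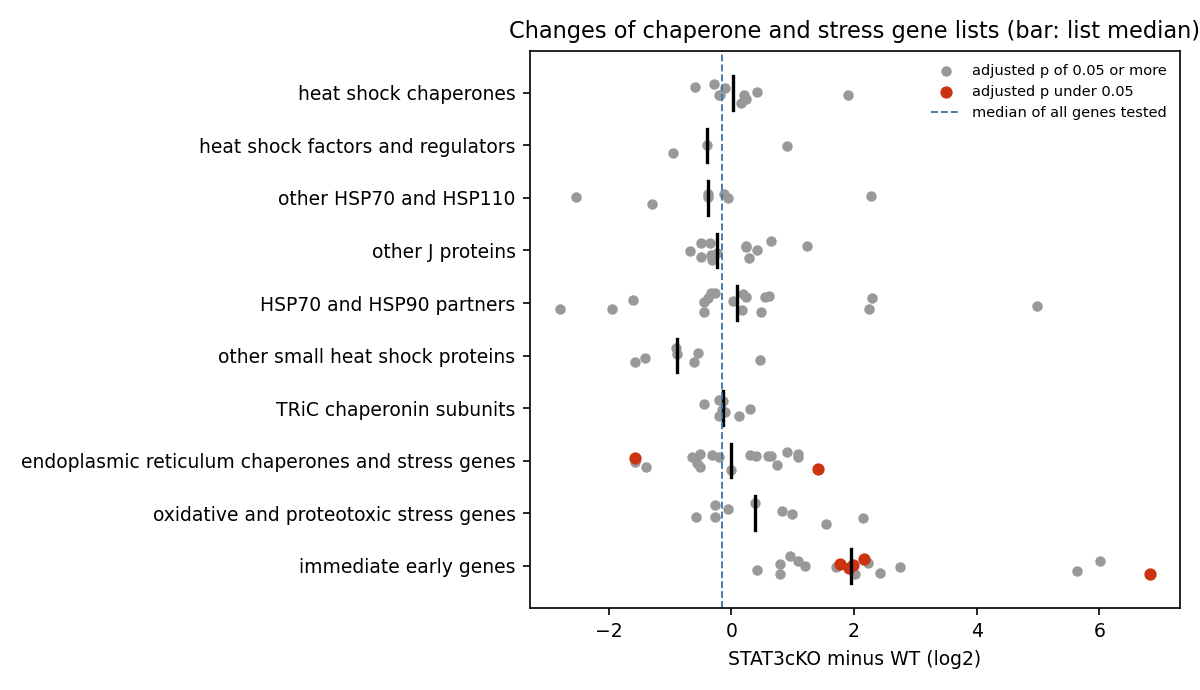
STAT3cKO minus WT (log2) of each tested gene in the chaperone set and the 9 other lists, in red where limma's adjusted p was under 0.05, with a black bar for the list's median and a dashed line for the median of all genes tested (-0.16). The chaperones lie around 0 apart from Hspa1b at 1.90, and the immediate early genes all lie above 0.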

How the data were processed

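3′ end RNA libraries (Lexogen QuantSeq kit, per the labels' protocols) of whole skin were analysed, 5 WT and 5 STAT3cKO, grouped by their titles. The submitters' processing notes name Bowtie2, bedtools and mm10, and the sources used here do not give versions, annotation, strand or scaling. The deposited log2 values, 1 table per library, name no unit. Their steps are those of whole reads (88.1 to 97.7% of values up to 20 reads, within 0.15 of a read), so they were read as log2 of scaled reads plus 1. Depth was estimated from the step, and values below 0.5 of a read count as none. Read numbers cover counting error only, since no molecular identifiers are named. Of 23282 entries 44 repeat a symbol (the earlier one was used) and 5996 were 0 throughout.

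Genes at 5 or more in at least 5 libraries (11536) were fitted with limma 3.58.1 in R 4.3.3 (genotype only, mean trend, robust moderation) and called at a Benjamini-Hochberg adjusted p under 0.05. Single values were tested by exact 2-sided permutation. The steps were tested on simulated data. Replicate numbers gave no pairing. Named genes are the 10 members and, per list, up to 3 called genes with the largest change or else the gene of lowest p. The members and lists were chosen with earlier results of these data known. Other scalings, filters, pseudocounts, weights and library subsets were tried. Positions are from GENCODE M21.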

Additional observations from a re-analysis of the deposited data

Results flagged for a closer look

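In 32 groups of 5 libraries the gap of the highest or lowest library to its nearest neighbour was set against the group's range (critical value 0.71), and chance flags about 1 in 20 groups. Of 6 values past it, 4 belong to single chaperones. Hspa1a in STAT3cKO 2 was at 0.06, against 8.85 to 10.36 in the other 4 STAT3cKO libraries (gap 0.853 of the range). Hsph1 in WT 3 was at 4.51, against 8.95 to 9.09 in the other WT libraries (0.971). Both libraries also had the most tested genes without a read of their group, 2617 and 1273.

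Hspa1b in WT 1 was at 6.11, against 8.48 to 9.05 in the other WT libraries (0.808), and the sum of Hspa1a and Hspa1b in WT 1 was at 7.83, against 9.46 to 9.97 (0.76). Both values lower the WT mean, and without WT 1 the change of Hspa1b was 1.36 in place of 1.90 and that of the sum 0.96 in place of 1.34 (limma adjusted p = 0.254 and 0.575). Hspa8 in WT 2 was at 13.17, against 12.68 to 12.74 (0.874), a small gap in a tight group. Serpinh1 in WT 2 was at 12.76, against 10.92 to 11.25 (0.821).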

How the results depend on the processing

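The members' median change, 0.02 in the report, ran from -0.11 (sample weights) to 0.19 (without STAT3cKO 2) over 24 alternatives, and from -0.10 to 0.19 with 1 library left out. Members called higher were 0 in the report and 1 with sample weights (Hspa1b, 2.06, limma adjusted p = 0.0299), where the Hspa1 sum also passed (1.61, limma adjusted p = 0.0352); the adjusted p of Hspa1b ran from 0.0299 to 0.797, and its change from 1.36 to 2.21 with 1 library left out. Members whose groups did not overlap, 0 in the report, were 1 higher with libraries at the same total (Hspa1b), 1 higher and 1 lower without WT 3 and STAT3cKO 2 together, 3 higher and 4 lower in the 4 deepest libraries, 1 higher in the 6 others, and 0 to 1 higher and 0 to 0 lower with 1 library left out. Groups of 2 or 3 libraries separate easily, and the share of all genes that did so in these settings was not computed. These counts are therefore no result about the members. Same numbers did not deviate together (correlations -0.15 to 0.02); with the replicate block limma called 66 genes in place of 114, 0 members, 0 pathway genes higher and 0 lower, and 4 immediate early genes, and Hspa1b had an adjusted p of 0.19.

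Genes of the 8 pathway lists called higher, 1 in the report, were 2 at a pseudocount of 50 and 0 without trend and robust estimation, without WT 3 and STAT3cKO 2, in the 4 deepest and in the 6 other libraries (0 to 1 with 1 left out). Those called lower, 1 in the report, were 0 with no filter, at a filter of 7, at the same total and in those same 4 settings (0 to 1 with 1 left out). Immediate early genes called, 5 in the report, were 3 with no filter, 8 at a pseudocount of 50, 8 with sample weights, 2 in the 4 deepest, and 1 each without trend, without both libraries and in the 6 others (3 to 6 with 1 left out). Over all genes the calls ran from 16 in the 6 shallower libraries to 375 with sample weights, with 44 without trend, 161 and 212 at pseudocounts of 10 and 50, 174 in the 4 deepest, 176 after quantile normalization, and 61 to 207 with 1 library left out.

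Directions turned for 7 members, none of them called, and the cause was not tested. Hspa1a was 0.04 and 0.37 at pseudocounts of 10 and 50, 0.40 after quantile normalization, 0.83 with sample weights, 1.11 without both libraries and 1.12 in the 4 deepest (-1.24 to 1.33 with 1 left out), against -1.73 in the 6 others. Hsph1 was -0.30 with sample weights, -0.61 without both libraries and -0.78 in the 4 deepest (-0.49 to 0.66). Hsp90aa1 was 0.00 after quantile normalization (-0.35 to 0.03), Hsp90ab1 -0.03 in the 4 deepest, and Hspe1 0.04 in the 6 others (-0.46 to 0.02). With 1 library left out Hspa8 ran from -0.05 to 0.30 and Hspb1 from -0.43 to 0.13. Hspa1a minus Hspa8 was 0.22 at a pseudocount of 50, 0.97 without both libraries and 0.76 in the 4 deepest (-1.54 to 1.16), and Hspe1 minus Hspd1 was -0.12 and -0.20 in the latter 2 settings (-0.37 to 0.41). Leaving out 1 library moved Hsp90aa1 minus Hsp90ab1 between -0.50 and -0.18. The set of libraries as a term, the Hspa1 sum and the depth split were chosen after seeing the data.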

Other observations

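The genes whose values over the 10 libraries ran most like the mean of the chaperones, each gene scaled to its own spread, were Adarb1 (root mean square difference 0.27), Ccdc77 (0.28), Naa30 (0.29), Fgfbp3 (0.31) and Zfp532 (0.34). Naa30 was at 7.93, 9.26, 7.62, 8.91 and 9.06 in WT 1 to 5 and at 9.93, 6.96, 10.57, 10.21 and 9.54 in STAT3cKO 1 to 5. The other 4 had no read in STAT3cKO 2 and WT 1 and stood at 0.06 to 1.91 in WT 3. These 3 libraries also had the lowest means of the 10 chaperones (10.02, 10.29 and 10.32). The likeness of those 4 genes thus follows libraries in which they had few reads or none. Each of these means holds 1 low chaperone: Hspa1a at 0.06 in STAT3cKO 2, Hspa1b at 6.11 in WT 1 and Hsph1 at 4.51 in WT 3. The means therefore do not show that the chaperones as a set were low in those libraries.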
